A study of Mus musculus with 12 samples.

Results

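The E2F transcription factors and the retinoblastoma pocket proteins were described through 10 genes, chosen by name out of the 49315 genes in the count tables. E2f1, E2f2 and E2f3 encode the E2F activators, E2f4, E2f5, E2f7 and E2f8 encode E2F repressors, and Rb1, Rbl1 and Rbl2 encode the pocket proteins RB, p107 and p130. All 10 had enough reads to be among the 15917 genes tested.

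The RNA came from mouse embryonic fibroblasts, connective tissue cells grown out of embryos, in 4 groups of 3 sequencing libraries. The groups had received rapamycin at 20 ng/ml, Torin1 at 250 nM, RapaLink-1 at 10 nM, or DMSO, labelled as the control. Treatment lasted 24 h, and all groups shared the medium, DMEM with 10% FBS, at 37°C and 5% CO2. The sources used here name no strain, genotype or passage and do not say whether the cells were a single line. They also leave unsaid whether replicates were grown as separate cultures, so the p-values measure the spread between these libraries alone, which may be technical.

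Rapamycin acts with the protein FKBP12 on mTOR complex 1, Torin1 competes with ATP at the kinase site of mTOR, and RapaLink-1 carries rapamycin and a kinase-site inhibitor on one linker. Growth signals that pass through mTOR help cells to build up D-type cyclins and to enter the cell cycle. E2F proteins bind promoters of genes for DNA replication and the cell cycle. In resting cells E2F4 and E2F5 sit there with p130 or p107 and keep the genes low, and RB binds and blocks the activators. Cyclin-dependent kinases phosphorylate the pocket proteins in late G1, the activators are freed, and genes of the family itself, among them E2f1, E2f2, E2f7, E2f8 and Rbl1, are known E2F targets. E2F7 and E2F8 bind DNA without a dimer partner and shut E2F targets down late in S phase.

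Each library held 30075870 to 39423703 counts. Of 10 fibroblast markers, 8 reached a mean of 1 CPM, counts scaled to the size of the library, in every group, while Lum and Fap stayed near or under that level. Summed fibroblast markers were 14600 to 15000 CPM with rapamycin, 12700 to 12900 CPM with Torin1 and 12800 to 13100 CPM with RapaLink-1, against 17000 to 17300 CPM with DMSO. Most of this sum came from Col1a1, Col1a2 and Vim, and the markers did not move together. Of the 9 tested, 3 were called higher than with DMSO (adjusted p below 0.05 in the test described with the results on the family) and 6 lower with rapamycin, 5 and 3 with Torin1, and 3 and 5 with RapaLink-1. With Torin1 the collagen genes Col1a1, Col1a2 and Col3a1 were at log2 fold changes of -0.65, -0.83 and -1.28, and Dcn, Thy1, Vim and Pdgfra at 1.51, 0.60, 0.36 and 0.34.

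Markers of other cell types were low, apart from the neural list, but several differed from DMSO, by log2 fold changes given here in brackets. The 5 endothelial markers summed to 1.47 to 2.21 CPM with rapamycin, 3.57 to 4.0 CPM with Torin1 and 3.72 to 4.15 CPM with RapaLink-1, against 1.04 to 1.73 CPM with DMSO, and of the 2 tested, Kdr was called higher with Torin1 (1.26) and RapaLink-1 (1.52) and Vwf with Torin1 (2.53), RapaLink-1 (2.35) and rapamycin (1.26). The 6 macrophage and blood markers summed to 2.42 to 3.64, 4.14 to 4.25 and 3.7 to 4.28 CPM with the compounds in the same order, against 2.96 to 3.39 CPM with DMSO, and Csf1r was called higher with Torin1 (1.64) and RapaLink-1 (1.65) but is uncertain, with 17.8% of its exonic bases in a gene on the opposite strand, while Ptprc, Adgre1 and Hba-a1 had 6, 1 and 2 counts over all libraries. The 6 epithelial markers summed to at most 1.76 CPM in any library. Of the 4 epithelial markers tested, Krt8 was called higher with Torin1 (3.97), where it averaged 0.485 CPM, and with RapaLink-1 (2.41), and Krt5 lower with RapaLink-1 (-1.66). The 4 muscle markers summed to at most 0.439 CPM, with no count of Myod1 or Myog, and Des was called higher with RapaLink-1 (1.15). The 5 neural markers summed to 320 to 342 CPM with rapamycin, 253 to 262 CPM with Torin1 and 287 to 289 CPM with RapaLink-1, against 336 to 344 CPM with DMSO, nearly all of it from Nes, Map2 and Tubb3, with no count of Olig2 and 2 counts of Sox2 over all libraries. The part of these markers in the results on the family was not tested. In RNA from a whole culture, fewer cells of one kind, such as cells in S phase, and less RNA per cell cannot be told apart.

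The starts of 5 members are shown because the family is known for feedback on itself. E2f2, E2f7 and E2f8 had the 3 deepest falls with Torin1 among the members, and Rbl1 and Rbl2 moved apart. These 5 were thus picked by their changes, and a link between letters and change was not tested. The windows run from 250 bases before to 50 bases after a start, from RefSeq on GRCm38.p6, where 7 of the 10 members matched with 9 windows in all. They lie at chr4:136172024-136172323 on the plus strand for E2f2, which has a second window, at chr10:110745189-110745488 on the plus strand for E2f7, at chr7:48881547-48881846 on the minus strand for E2f8, at chr2:157204485-157204784 on the minus strand for Rbl1 and at chr8:91069807-91070106 on the plus strand for Rbl2. Capitals mark E2F-type letters on either strand.
E2f2 promoter: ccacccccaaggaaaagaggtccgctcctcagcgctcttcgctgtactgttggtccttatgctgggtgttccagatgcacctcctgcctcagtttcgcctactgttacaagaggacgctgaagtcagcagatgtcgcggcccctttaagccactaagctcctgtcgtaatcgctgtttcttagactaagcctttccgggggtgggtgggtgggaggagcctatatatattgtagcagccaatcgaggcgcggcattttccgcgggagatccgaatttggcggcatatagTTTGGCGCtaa
E2f7 promoter: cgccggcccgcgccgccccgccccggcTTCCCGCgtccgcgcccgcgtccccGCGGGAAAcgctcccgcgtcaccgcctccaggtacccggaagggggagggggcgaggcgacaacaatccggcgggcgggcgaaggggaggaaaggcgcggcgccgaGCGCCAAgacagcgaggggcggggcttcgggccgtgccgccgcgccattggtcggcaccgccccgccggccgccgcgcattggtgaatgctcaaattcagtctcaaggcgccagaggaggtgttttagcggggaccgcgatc
E2f8 promoter: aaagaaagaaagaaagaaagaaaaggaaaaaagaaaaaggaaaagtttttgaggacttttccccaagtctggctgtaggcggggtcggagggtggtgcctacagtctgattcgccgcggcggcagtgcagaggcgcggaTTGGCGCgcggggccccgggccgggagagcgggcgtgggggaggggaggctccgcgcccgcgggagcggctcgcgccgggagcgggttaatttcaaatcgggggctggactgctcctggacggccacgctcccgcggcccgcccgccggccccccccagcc
Rbl1 promoter: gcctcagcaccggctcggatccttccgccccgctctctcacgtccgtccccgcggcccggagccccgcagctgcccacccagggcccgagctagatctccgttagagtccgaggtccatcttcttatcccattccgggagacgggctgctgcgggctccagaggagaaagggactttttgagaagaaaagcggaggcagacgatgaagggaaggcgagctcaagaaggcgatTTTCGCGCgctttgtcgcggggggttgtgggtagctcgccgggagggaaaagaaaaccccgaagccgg
Rbl2 promoter: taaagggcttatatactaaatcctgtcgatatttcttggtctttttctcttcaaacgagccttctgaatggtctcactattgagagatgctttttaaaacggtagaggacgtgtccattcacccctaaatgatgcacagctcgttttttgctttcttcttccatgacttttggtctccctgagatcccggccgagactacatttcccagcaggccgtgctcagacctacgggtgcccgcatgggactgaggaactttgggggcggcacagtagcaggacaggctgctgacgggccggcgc

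The letters searched on both strands were an 8-base form, TTTCCCGC, TTTCGCGC, TTTGCCGC or TTTGGCGC, and its 7-base core, the same letters without the first T, so that each 8-base match also holds a 7-base match. The 8-base form stood in 4 of the 9 member windows, in 2.26% of 32851 windows of all genes and in 3.87% of those of tested genes. The core stood in 5 of the 9, those of E2f2 (first window), E2f3 (one of its windows), E2f7, E2f8 and Rbl1, and in 9.57% of all windows and 16.3% of the 13981 windows of tested genes. Positions are counted from the start site, with negative numbers before it. Rbl1 held TTTCGCGC at position -18, E2f2 held TTTGGCGC at position 40 after its start, and E2f8 held the core TTGGCGC at position -111. E2f7 had 3 cores, at positions -223, -198 and -92, the middle one part of the 8-base form. One window of E2f3, the activator gene that moved least, held the 8-base form at position -11 and another core at position 19. The windows of Rbl2, of E2f1, the second of E2f2 and one of E2f3 held none of these letters. The E2f1 window, chr2:154569377-154569676 on the minus strand, lies inside the gene, which starts at 154569892 in the count tables. Bases before that start of E2f1 were therefore not searched. TTTGAA, the letters of the CHR element that late cell-cycle genes carry, stood in 4 of the 9 member windows, against 17.9% of all windows and 12% of those of tested genes. E2f8 had it at position -20 on the opposite strand, and Rbl2 had it at position -201, also on the opposite strand. The same E2f3 window had it at position -23, and the second E2f2 window at position -31. A match is a description of letters, and the data hold no measure of binding.

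Against DMSO, all 7 E2F genes were lower with Torin1 and with RapaLink-1, activators and repressors alike, although E2f5 with Torin1 was no longer called under upper-quartile scaling. With rapamycin 5 of the 7 were lower. E2f2 fell most with each compound, followed by E2f8. The pocket protein genes moved apart: Rb1 and Rbl2 were higher with each compound, while Rbl1 was lower with Torin1 and RapaLink-1 and slightly higher with rapamycin. Changes are given as log2 fold changes with their standard errors, and p-values come from edgeR's quasi-likelihood test, adjusted by the Benjamini-Hochberg method over all genes tested. Calls were made where that p was below 0.05. The 3 comparisons with DMSO share the same DMSO libraries.

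With rapamycin 3 of the 10 members were called higher, where 27.5% of all genes were, and 5 were called lower, where 32.2% of all genes were. The 8 called compare with 59.7% of all genes called either way, and 9 members had no overlap between libraries, against 63.0% of all genes. None of the 10 was called lower by at least 2-fold, against 0.528% of all genes. With Torin1 2 were called higher, against 39.8% of all genes, and 8 lower, against 38.3%. All 10 were called, against 78.0%, and all 10 had no overlap, against 78.5%. The falls of E2f2, E2f7 and E2f8 with Torin1 were at least 2-fold, as were the falls of 6.35% of all genes. With RapaLink-1 2 were called higher, against 38.7%, and 8 lower, against 37.9%. Again all 10 were called, against 76.7%, with no overlap in any of the 10, against 77.6%. E2f2, E2f4 and E2f8 were called lower by at least 2-fold with RapaLink-1, against 5.77% of all genes. Under upper-quartile scaling E2f7 with Torin1 was at -0.966 and E2f4 with RapaLink-1 at -0.884, which left 2 members past 2-fold in each comparison, and E2f4 with RapaLink-1 also fell short of 2-fold with only genes of at least 5 CPM. A call by itself was therefore common among all genes in these data.

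**Figure D1:**
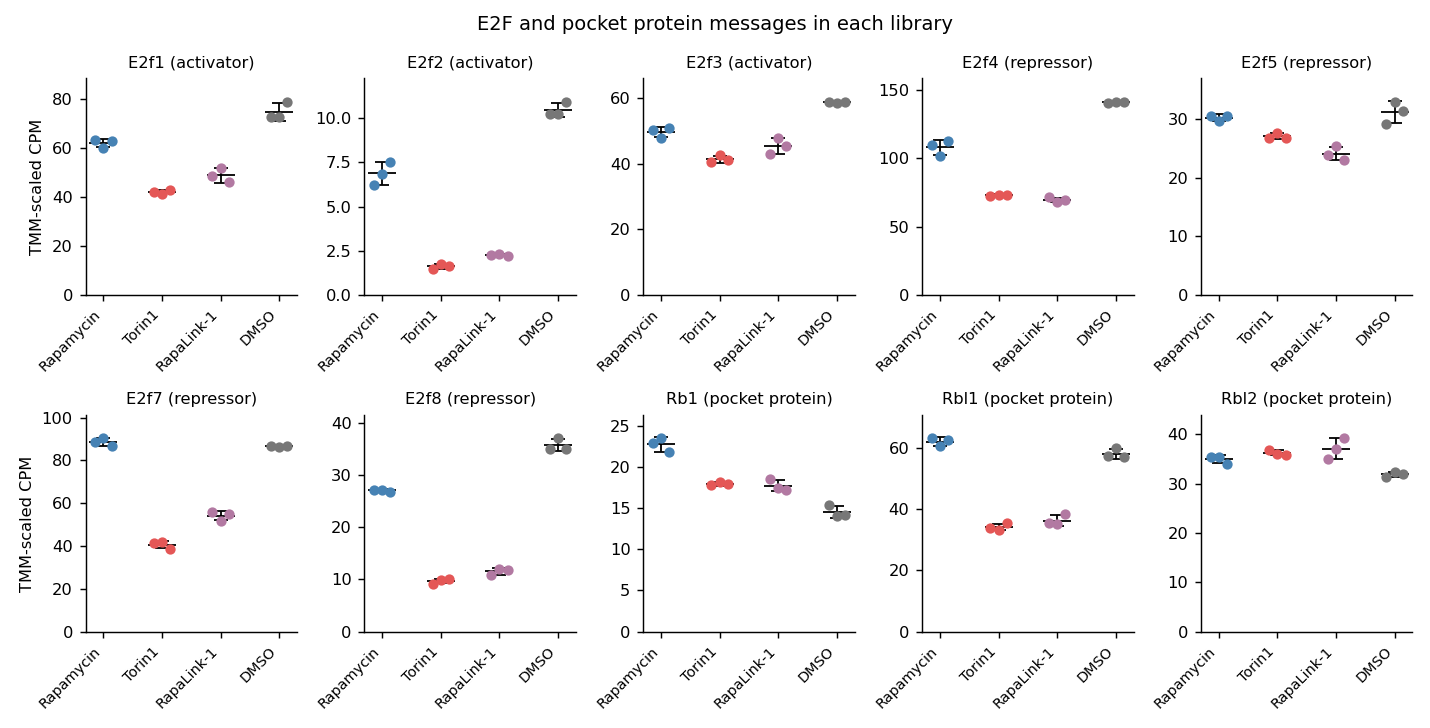
Level of each member in TMM-scaled CPM in each of the 12 libraries, by group, with the linear axis of each panel starting at 0; points are libraries, and bars the mean and SD of 3. All 7 E2F genes sit lower with Torin1 and RapaLink-1 than with DMSO, Rb1 sits highest with rapamycin, and Rbl1 and Rbl2 part with Torin1 and RapaLink-1.

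Among the activators, E2f1 (ENSMUSG00000027490, chr2:154559407-154569892 on the minus strand of GRCm38), the founding member whose product drives S-phase genes, was measured at 63.1, 60.1 and 62.9 CPM with rapamycin, 42.2, 41.4 and 42.7 CPM with Torin1 and 48.4, 52.0 and 46.1 CPM with RapaLink-1, against 72.6, 72.5 and 79.0 CPM with DMSO. The groups did not overlap, DMSO was highest and Torin1 lowest. The log2 fold change of E2f1 against DMSO was -0.27 ± 0.03 with rapamycin (adjusted p = 2.48e-13), -0.83 ± 0.03 with Torin1 (adjusted p = 4.28e-50) and -0.61 ± 0.03 with RapaLink-1 (adjusted p = 4.79e-38).

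E2f2 (ENSMUSG00000018983, chr4:136172394-136196057 on the plus strand), an activator with the fewest reads of the 10, 45 to 392 per library, had 6.22, 6.87 and 7.53 CPM with rapamycin, 1.45, 1.76 and 1.63 CPM with Torin1 and 2.25, 2.33 and 2.20 CPM with RapaLink-1, against 10.2, 10.2 and 10.9 CPM with DMSO. Every Torin1 library was below every RapaLink-1 library, and rapamycin lay between these and DMSO. Its log2 fold change was -0.60 ± 0.08 with rapamycin (adjusted p = 2e-11), -2.69 ± 0.11 with Torin1 (adjusted p = 2.44e-55) and -2.21 ± 0.10 with RapaLink-1 (adjusted p = 9.34e-49). The level of E2f2 with Torin1 was thus 0.155 times that with DMSO. Ordered from the deepest fall, this change ranked 28 of the 15917 genes with Torin1, 64 with RapaLink-1 and 501 with rapamycin.

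E2f3 (ENSMUSG00000016477, chr13:29906575-29985668 on the minus strand) makes an activator form, E2F3a, and a shorter form, E2F3b, and the gene count pools both. It was measured at 50.4, 47.9 and 50.8 CPM with rapamycin, 40.5, 42.6 and 41.2 CPM with Torin1 and 43.0, 47.9 and 45.4 CPM with RapaLink-1, against 58.9, 58.5 and 59.0 CPM with DMSO. Every treated library was below every DMSO library. E2f3 moved least of the activators, by a log2 fold change of -0.24 ± 0.03 with rapamycin (adjusted p = 8.83e-11), -0.50 ± 0.03 with Torin1 (adjusted p = 8.77e-31) and -0.37 ± 0.03 with RapaLink-1 (adjusted p = 1.4e-20).

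Of the repressors, E2f4 (ENSMUSG00000014859, chr8:105297663-105305370 on the plus strand), whose product is the main E2F of resting cells, had the most reads. It had 110.1, 102.1 and 112.6 CPM with rapamycin, 72.5, 73.5 and 73.2 CPM with Torin1 and 71.4, 68.2 and 69.3 CPM with RapaLink-1, against 140.9, 141.1 and 141.6 CPM with DMSO. The 3 treated groups lay far below DMSO, with RapaLink-1 and Torin1 close together. Log2 fold changes of E2f4 were -0.38 ± 0.02 with rapamycin (adjusted p = 7.48e-33), -0.95 ± 0.03 with Torin1 (adjusted p = 8.66e-79) and -1.02 ± 0.03 with RapaLink-1 (adjusted p = 1.16e-82).

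E2f5 (ENSMUSG00000027552, chr3:14578641-14606309 on the plus strand), the close relative of E2f4 that partners p130, had 30.6, 29.7 and 30.6 CPM with rapamycin, 26.8, 27.6 and 26.9 CPM with Torin1 and 24.0, 25.4 and 23.1 CPM with RapaLink-1, against 29.3, 33.0 and 31.4 CPM with DMSO. The rapamycin libraries lay within the range of DMSO, and the other 2 groups lay below it. The log2 fold change of E2f5 was -0.04 ± 0.04 with rapamycin (adjusted p = 0.44, 95% interval of the unadjusted difference -0.12 to 0.04), -0.20 ± 0.04 with Torin1 (adjusted p = 1.32e-05) and -0.37 ± 0.04 with RapaLink-1 (adjusted p = 1.14e-13). Scaling by upper quartiles shifted the median over all genes by 0.126 on the log2 scale for Torin1 and by 0.137 for RapaLink-1. With it, the change of E2f5 with Torin1 was -0.075 and no longer called (adjusted p = 0.107), and its change with rapamycin was 0.024.

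E2f7 (ENSMUSG00000020185, chr10:110745439-110787384 on the plus strand), an atypical repressor, was at 88.5, 90.3 and 86.9 CPM with rapamycin, 41.6, 41.8 and 38.8 CPM with Torin1 and 55.7, 51.8 and 54.9 CPM with RapaLink-1, against 86.8, 86.5 and 86.9 CPM with DMSO. The lowest rapamycin library was just above the highest DMSO library, and the other 2 groups were well below both. The log2 fold change of E2f7 was 0.03 ± 0.03 with rapamycin (adjusted p = 0.37, 95% interval of the unadjusted difference -0.02 to 0.08), -1.09 ± 0.03 with Torin1 (adjusted p = 1.21e-75) and -0.68 ± 0.03 with RapaLink-1 (adjusted p = 2.07e-51). Under upper-quartile scaling the rapamycin value was 0.092 and was called (adjusted p = 0.00223), and with only genes of at least 5 CPM it was 0.088 (adjusted p = 0.0032).

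E2f8 (ENSMUSG00000046179, chr7:48866429-48881596 on the minus strand), the other atypical repressor, had 27.2, 27.1 and 26.8 CPM with rapamycin, 9.21, 9.92 and 10.0 CPM with Torin1 and 10.8, 12.03 and 11.7 CPM with RapaLink-1, against 35.0, 37.0 and 35.0 CPM with DMSO. No 2 groups overlapped. Log2 fold changes of E2f8 were -0.40 ± 0.04 with rapamycin (adjusted p = 5.92e-16), -1.87 ± 0.05 with Torin1 (adjusted p = 4.36e-77) and -1.63 ± 0.05 with RapaLink-1 (adjusted p = 1.16e-70). E2f8 was at 0.273 times its DMSO level with Torin1 and at 0.324 times with RapaLink-1. E2f8 is given as uncertain, since its exons overlap those of Gm2788 on the opposite strand over 11.2% of their length and how the counting treated strand is not stated; Gm2788 had 308 counts in all libraries together, against 8929 for E2f8. The overlaps of E2f5 and E2f7 with genes on the opposite strand cover 1.5% and 1.0% of their exonic bases.

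**Figure D2:**
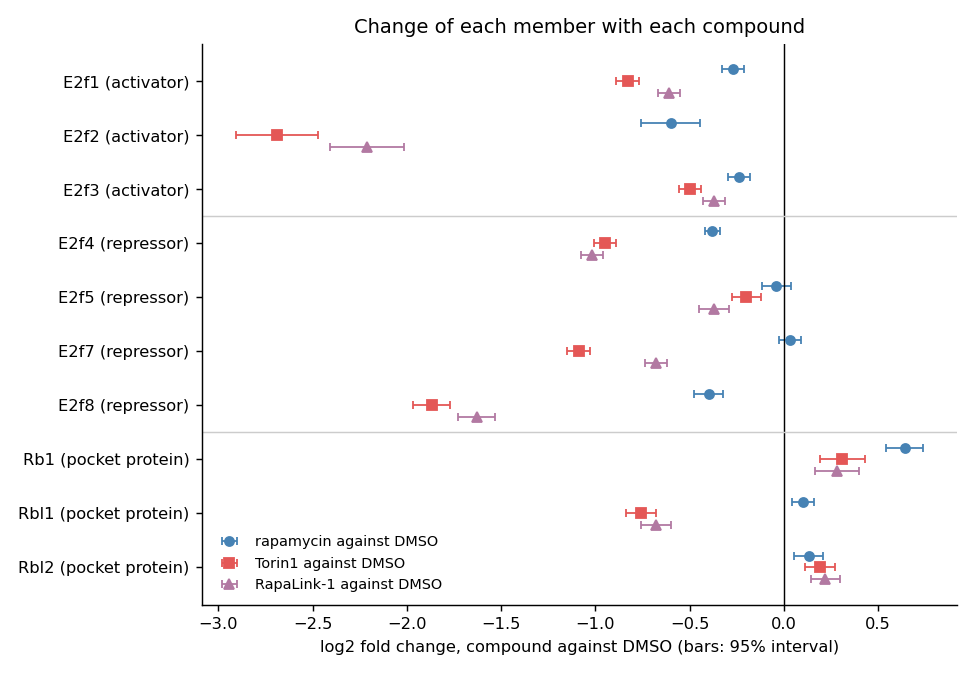
Log2 fold change of each member with each compound against DMSO on the horizontal axis, by member on the vertical axis; circles are rapamycin, squares Torin1 and triangles RapaLink-1, and bars span the 95% interval. E2f2 lies farthest left, at -2.69 with Torin1, and Rb1 farthest right, at 0.64 with rapamycin.

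Rb1 (ENSMUSG00000022105, chr14:73183673-73325822 on the minus strand) encodes RB, which binds the activator E2Fs. It had 23.0, 23.5 and 21.8 CPM with rapamycin, 17.8, 18.2 and 17.9 CPM with Torin1 and 18.5, 17.5 and 17.2 CPM with RapaLink-1, against 15.4, 14.03 and 14.2 CPM with DMSO. Rapamycin stood above both other compounds, which lay together above DMSO. Rb1 had a log2 fold change of 0.64 ± 0.05 with rapamycin (adjusted p = 1.83e-23), 0.31 ± 0.06 with Torin1 (adjusted p = 2.82e-07) and 0.28 ± 0.06 with RapaLink-1 (adjusted p = 2.17e-06). Rb1 is given as uncertain, because 14.9% of its exonic bases overlap Rcbtb2 and Lpar6 on the opposite strand, which had 25421 and 6940 counts in all against 7690 for Rb1. The log2 fold change of Rcbtb2 was 0.00 ± 0.03 with rapamycin, -0.08 ± 0.03 with Torin1 and -0.15 ± 0.03 with RapaLink-1. Lpar6 had 0.01 ± 0.05, -0.30 ± 0.06 and -0.28 ± 0.06 in the same order. Neither neighbour was called higher with any compound. The part of reads from shared bases in the Rb1 values was not tested.

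Rbl1 (ENSMUSG00000027641, chr2:157145893-157204534 on the minus strand) encodes p107, the pocket protein of cycling cells. Its levels were 63.2, 60.6 and 62.7 CPM with rapamycin, 34.0, 33.3 and 35.4 CPM with Torin1 and 35.4, 35.1 and 38.3 CPM with RapaLink-1, against 57.4, 60.1 and 57.1 CPM with DMSO. The lowest rapamycin library was just above the highest DMSO library, and the other compounds were far below both. The log2 fold change of Rbl1 was 0.10 ± 0.03 with rapamycin (adjusted p = 0.00593), -0.76 ± 0.04 with Torin1 (adjusted p = 5.05e-48) and -0.68 ± 0.04 with RapaLink-1 (adjusted p = 1.13e-42).

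Rbl2 (ENSMUSG00000031666, chr8:91070057-91123844 on the plus strand) encodes p130, the pocket protein of resting cells and a part of the DREAM repressor complex. It had 35.5, 35.3 and 34.0 CPM with rapamycin, 36.9, 36.1 and 35.9 CPM with Torin1 and 35.1, 37.0 and 39.2 CPM with RapaLink-1, against 31.4, 32.4 and 32.0 CPM with DMSO. All 9 treated libraries were above the 3 DMSO libraries, and the compounds were close to one another. Its log2 fold change was 0.13 ± 0.04 with rapamycin (adjusted p = 0.00307), 0.19 ± 0.04 with Torin1 (adjusted p = 1.32e-05) and 0.22 ± 0.04 with RapaLink-1 (adjusted p = 2.48e-07). Rbl2 is uncertain in the same way, with 21.0% of its exonic bases shared with Aktip and Gm45464 on the opposite strand. Aktip, with 14886 counts against 14791 for Rbl2, had log2 fold changes of -0.01 ± 0.04 with rapamycin, 0.10 ± 0.04 with Torin1 and -0.03 ± 0.04 with RapaLink-1. Aktip was thus called higher with Torin1 (adjusted p = 0.0165), with no overlap between libraries, where Rbl2 was called higher too. The part of reads from shared bases in the Rbl2 values was not tested either.

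To set levels of different members side by side, CPM were divided by the exonic length in kilobases (FPKM). The summed level of the 7 E2F genes was 107.4 ± 3.19 FPKM with rapamycin, 73.6 ± 0.671 FPKM with Torin1 and 75.5 ± 1.48 FPKM with RapaLink-1, against 129.4 ± 1.85 FPKM with DMSO (SD, n = 3 each). E2f4 made up the most of this sum in each group. Its share of the summed FPKM was 41.1% ± 0.876 with rapamycin, 40.5% ± 0.125 with Torin1 and 37.6% ± 1.30 with RapaLink-1, against 44.5% ± 0.552 with DMSO. The share of the 3 activators together was 29.3% ± 0.0564 with rapamycin, 30.3% ± 0.231 with Torin1 and 33.7% ± 1.18 with RapaLink-1, against 29.4% ± 0.745 with DMSO. With rapamycin and Torin1 the activator share thus stayed within 1 percentage point of DMSO while the sum was lower, and all 3 RapaLink-1 libraries, at 32.8% to 35.0%, were above the DMSO range of 28.8% to 30.2%. E2f5, which changed least of the E2F genes with Torin1, took 15.8% ± 0.210 of the sum with rapamycin, 20.6% ± 0.198 with Torin1 and 17.9% ± 0.516 with RapaLink-1, against 13.5% ± 0.696 with DMSO.

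The summed level of the 3 pocket protein genes was 18.8 ± 0.253 FPKM with rapamycin, 13.5 ± 0.136 FPKM with Torin1 and 13.9 ± 0.458 FPKM with RapaLink-1, against 16.35 ± 0.272 FPKM with DMSO. Rbl1 held 55.2% ± 1.09 of it with rapamycin, 42.3% ± 0.929 with Torin1 and 43.5% ± 0.709 with RapaLink-1, against 59.4% ± 0.745 with DMSO. Rbl2 held 24.6% ± 0.398 with rapamycin, 35.6% ± 0.680 with Torin1 and 35.3% ± 1.07 with RapaLink-1, against 25.8% ± 0.384 with DMSO. Rbl1 was still the largest of the 3 in each group, but its lead over Rbl2 narrowed with Torin1 and RapaLink-1. Rb1 had the smallest share in each group, 20.1% ± 0.700 with rapamycin, 22.1% ± 0.483 with Torin1 and 21.2% ± 1.38 with RapaLink-1, against 14.8% ± 0.857 with DMSO. These sums and shares carry the uncertainty of Rb1 and Rbl2. Of their exonic bases, 14.9% and 21.0% overlap genes on the opposite strand.

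**Figure D3:**
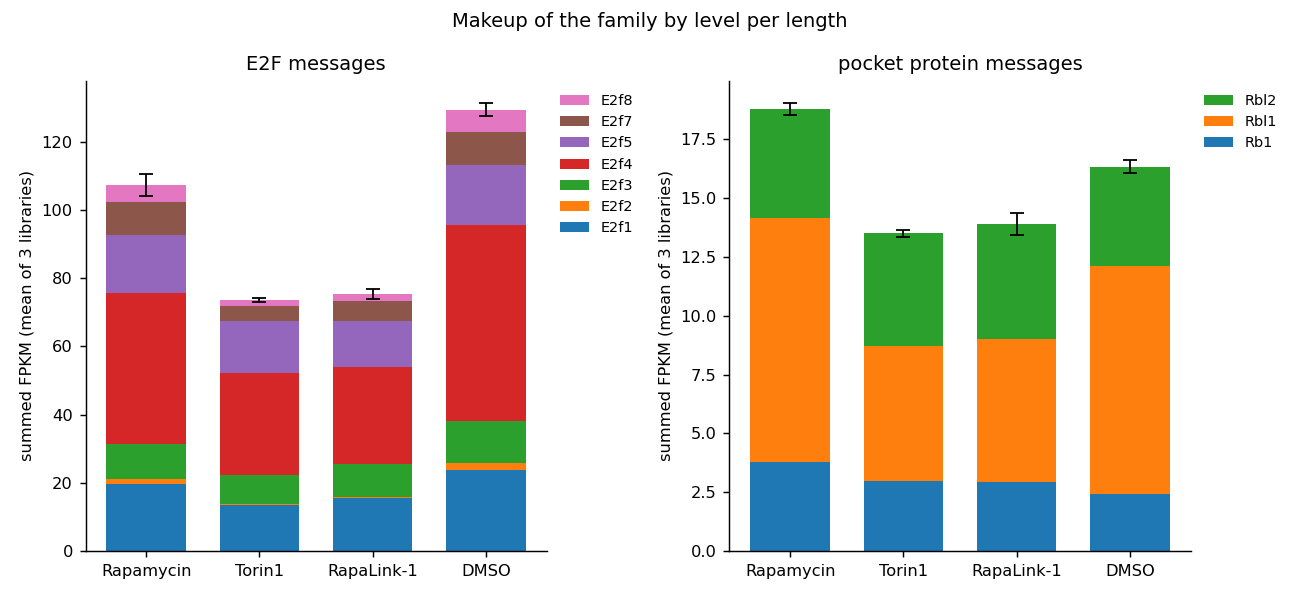
Summed level per length (FPKM, mean of 3 libraries) of the 7 E2F genes on the left and the 3 pocket protein genes on the right, by group, stacked by gene; error bars are the SD of the sum. The E2F sum is 73.6 with Torin1 and 129.4 with DMSO, and within the pocket proteins the Rbl1 layer thins with Torin1 and RapaLink-1.

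Ratios within a library do not depend on how libraries are scaled. The log2 ratio of Rbl2 to Rbl1 per length was -1.17, -1.11 and -1.22 with rapamycin, -0.22, -0.22 and -0.32 with Torin1 and -0.35, -0.26 and -0.30 with RapaLink-1, against -1.21, -1.23 and -1.17 with DMSO. Rapamycin overlapped DMSO, and the 6 other treated libraries were far above it. The difference from DMSO was 0.04 on the log2 scale with rapamycin (exact permutation p = 0.4, two-sided), 0.95 with Torin1 (exact permutation p = 0.1) and 0.90 with RapaLink-1 (exact permutation p = 0.1). With 3 libraries against 3 this test cannot go below 0.1. As a plain ratio of counts per exonic length, Rbl2 was at 0.446 times Rbl1 with rapamycin, 0.841 with Torin1 and 0.81 with RapaLink-1, against 0.435 with DMSO. These ratios carry the uncertainty of Rbl2, with 21.0% of its exonic bases shared with genes on the opposite strand.

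E2f1 and E2f4, the activator and the repressor with the highest level per length, had a log2 ratio per length of -1.17, -1.13 and -1.20 with rapamycin, -1.14, -1.19 and -1.14 with Torin1 and -0.92, -0.76 and -0.95 with RapaLink-1, against -1.32, -1.32 and -1.21 with DMSO. The treated libraries were all above DMSO, by little with rapamycin and Torin1 and by more with RapaLink-1. The differences were 0.12, 0.13 and 0.41 on the log2 scale with rapamycin, Torin1 and RapaLink-1, each with an exact permutation p of 0.1, the smallest possible. Both genes fell, and E2f4 fell more.

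The compounds were then set against each other for the 10 members. Their doses differ, so a difference between 2 compounds is also one between those doses. Torin1 against rapamycin gave 0 members called higher, against 34.2% of all genes, and 9 called lower, against 33.2%. These 9 calls compare with 67.5% of all genes called, and libraries did not overlap for all 10, against 69.2%. E2f2, E2f7 and E2f8 were called lower by at least 2-fold, against 3.29% of all genes. RapaLink-1 against rapamycin gave 1 member higher, against 32.0%, and 9 lower, against 33.0%. All 10 were called, against 65.0%, and 9 did not overlap, against 67.4%. E2f2 and E2f8 were called lower by at least 2-fold there, against 2.57% of all genes. RapaLink-1 against Torin1 gave 5 higher, against 16.7%, and 2 lower, against 16.4%. The 7 calls compare with 33.2%, the 7 members with no overlap compare with 42.2%, and no member was called lower by at least 2-fold, against 1.09% of all genes. P-values were adjusted over all genes within each of the 6 comparisons, for 60 member values in all.

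E2f7 and Rbl1, neither of which was lower with rapamycin than with DMSO, were lower with Torin1 and RapaLink-1 than with rapamycin. The same held by less for E2f5, which was not called with rapamycin against DMSO and is given below. E2f7 differed by a log2 fold change of -1.12 ± 0.03 between Torin1 and rapamycin (adjusted p = 5.74e-77) and of -0.71 ± 0.03 between RapaLink-1 and rapamycin (adjusted p = 2.25e-53). For Rbl1 the differences were -0.86 ± 0.04 (adjusted p = 1.39e-54) and -0.78 ± 0.04 (adjusted p = 1.52e-49). Rb1 was lower with Torin1 and with RapaLink-1 than with rapamycin, with log2 fold changes of -0.34 ± 0.05 with Torin1 (adjusted p = 1.95e-09) and of -0.36 ± 0.05 with RapaLink-1 (adjusted p = 2.09e-10). In size, E2f2 and E2f8 differed most from rapamycin. E2f2 was at 0.235 times its rapamycin level with Torin1, a log2 fold change of -2.09 ± 0.12 (adjusted p = 4.47e-38), and at 0.328 times with RapaLink-1, -1.61 ± 0.11 (adjusted p = 3.85e-30). For E2f8 the log2 fold change was -1.47 ± 0.06 with Torin1 (adjusted p = 1.44e-59) and -1.23 ± 0.05 with RapaLink-1 (adjusted p = 1.82e-51).

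Of the other members, E2f4 differed from its rapamycin level by -0.57 ± 0.03 with Torin1 (adjusted p = 1.76e-47) and -0.64 ± 0.03 with RapaLink-1 (adjusted p = 4.7e-53). E2f1 differed by -0.56 ± 0.03 with Torin1 (adjusted p = 4.19e-32) and -0.35 ± 0.03 with RapaLink-1 (adjusted p = 9.14e-18). E2f5 differed by -0.16 ± 0.04 (adjusted p = 0.000567) and -0.33 ± 0.04 (adjusted p = 3.2e-11) in the same order. E2f3 differed by -0.26 ± 0.04 with Torin1 (adjusted p = 1.69e-11) and by -0.13 ± 0.03 with RapaLink-1 (adjusted p = 0.00056). Under upper-quartile scaling the RapaLink-1 value of E2f3 was -0.055 and was not called (adjusted p = 0.157).

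Rbl2 gave no firm difference between compounds. Torin1 against rapamycin gave 0.06 ± 0.04 (adjusted p = 0.211, 95% interval of the unadjusted difference -0.02 to 0.13), which upper-quartile scaling made 0.119 and called (adjusted p = 0.00512) and a filter of 5 CPM made 0.089 and called (adjusted p = 0.0333). RapaLink-1 against rapamycin gave 0.09 ± 0.04 (adjusted p = 0.0356), with overlapping libraries. That call was lost when rapamycin replicate 3 (0.067), RapaLink-1 replicate 2 (0.079), RapaLink-1 replicate 3 (0.034) or any of the Torin1 libraries (0.077 each) was left out, without the filter on low counts (0.087) and with DESeq2 (0.092).

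RapaLink-1 and Torin1 lay nearer each other. All 3 activators were higher with RapaLink-1 than with Torin1, E2f1 by 0.21 ± 0.04 (adjusted p = 3.34e-07), E2f2 by 0.48 ± 0.15 (adjusted p = 0.00849) and E2f3 by 0.13 ± 0.04 (adjusted p = 0.00141). Both atypical repressors were higher as well, E2f7 by 0.41 ± 0.03 (adjusted p = 1.5e-22) and E2f8 by 0.25 ± 0.07 (adjusted p = 0.00144). The classical repressors went the other way, E2f5 by -0.17 ± 0.05 (adjusted p = 0.00186) and E2f4 by -0.07 ± 0.03 (adjusted p = 0.0461). The call of E2f5 was lost without RapaLink-1 replicate 3, at -0.125 (adjusted p = 0.0568). The call of E2f4 was lost in 12 of 19 alternatives, among them leaving out any DMSO library (-0.071 to -0.07), any Torin1 library (-0.07 to -0.06), RapaLink-1 replicate 2 (-0.049) or RapaLink-1 replicate 3 (-0.06).

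No difference between RapaLink-1 and Torin1 was called for the pocket protein genes. For Rb1 it was -0.02 ± 0.05 (adjusted p = 0.788, 95% interval of the unadjusted difference -0.13 to 0.08), and for Rbl2 it was 0.04 ± 0.04 (adjusted p = 0.543, interval -0.04 to 0.11). For Rbl1 it was 0.08 ± 0.04 (adjusted p = 0.0844, interval 0.01 to 0.16). Without Torin1 replicate 3 the value of Rbl1 was 0.117 (adjusted p = 0.0305), without RapaLink-1 replicate 1 it was 0.107 (adjusted p = 0.0485) and without RapaLink-1 replicate 2 it was 0.117 (adjusted p = 0.0312), and each of these was called. So were the values with upper-quartile scaling, 0.096 (adjusted p = 0.0461), and with DESeq2 size factors, 0.095 (adjusted p = 0.0479).

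Around the family, the E2F dimer partners were read first, since E2F1 to E2F6 bind DNA only with a DP protein. Tfdp1, which encodes DP1, had 261.7 ± 3.70 CPM with rapamycin, 148.1 ± 0.915 CPM with Torin1 and 154.8 ± 3.47 CPM with RapaLink-1, against 340.8 ± 3.51 CPM with DMSO. It fell, with log2 fold changes of -0.38 ± 0.02 with rapamycin (adjusted p = 1.27e-46), -1.20 ± 0.02 with Torin1 (adjusted p = 9.89e-113) and -1.14 ± 0.02 with RapaLink-1 (adjusted p = 1.9e-109). Tfdp2, which encodes DP2, rose by 0.27 ± 0.03 with rapamycin (adjusted p = 2.73e-12), 0.09 ± 0.04 with Torin1 (adjusted p = 0.0201) and 0.16 ± 0.04 with RapaLink-1 (adjusted p = 3.07e-05), and its Torin1 call was lost with DESeq2 size factors. E2f6, a repressor that works without pocket proteins, fell too, with log2 fold changes of -0.25 ± 0.04 with rapamycin (adjusted p = 4.87e-09) and -0.43 ± 0.04 with Torin1 (adjusted p = 9.93e-20) and RapaLink-1 (adjusted p = 2.5e-19) alike.

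The MuvB core forms DREAM with p130 or p107, and later activates mitotic genes with B-MYB and FOXM1 instead. The next list held 8 genes, those of this core, its kinase DYRK1A and its partners B-MYB and FOXM1. Of these 1 was called higher and 6 lower with rapamycin (median log2 fold change -0.17), 0 and 6 with Torin1 (-0.76), and 0 and 7 with RapaLink-1 (-0.58), where the medians of all genes were 0.004, 0.039 and 0.026. Beside this list and those below, 27.5% of all genes were called higher and 32.2% lower with rapamycin. The shares were 39.8% and 38.3% with Torin1 and 38.7% and 37.9% with RapaLink-1. For the 8 genes, upper-quartile scaling gave 1 and 5, 1 and 6, and 0 and 6. Mybl2, which encodes B-MYB, fell, with log2 fold changes of -0.56 ± 0.03, -1.69 ± 0.04 and -1.46 ± 0.03 with rapamycin, Torin1 and RapaLink-1. Foxm1 fell as well, at -0.10 ± 0.02 with rapamycin, -1.41 ± 0.02 with Torin1 and -1.07 ± 0.02 with RapaLink-1. Lin54, a DNA-binding MuvB subunit gene, fell, at -0.33 ± 0.04, -1.12 ± 0.04 and -0.90 ± 0.04 with rapamycin, Torin1 and RapaLink-1. Rbbp4, for the histone-binding subunit, fell by less, at -0.12 ± 0.02, -0.53 ± 0.02 and -0.45 ± 0.02, and is uncertain, as 18.0% of its exonic bases overlap genes on the opposite strand. The 1 gene called higher with rapamycin was Lin52, at 0.23 ± 0.07 (adjusted p = 0.00276), a MuvB subunit.

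Of 9 genes for G1 cyclins, their kinases and Cdc25a, 1 was called higher and 8 lower with rapamycin (median log2 fold change -0.24), 0 and 8 with Torin1 (-0.79) and 0 and 8 with RapaLink-1 (-0.85). The 2 cyclin E genes, whose products complete the phosphorylation of the pocket proteins, had the deepest falls of the list with Torin1 and RapaLink-1 but not with rapamycin. Ccne1 had 32.2 ± 0.654 CPM with rapamycin, 7.75 ± 0.877 CPM with Torin1 and 8.92 ± 0.809 CPM with RapaLink-1, against 41.9 ± 1.08 CPM with DMSO, and its log2 fold changes were -0.38 ± 0.04, -2.44 ± 0.05 and -2.24 ± 0.05 in that order. Ccne2 was at -0.24 ± 0.03, -1.78 ± 0.04 and -1.55 ± 0.04, and is uncertain, since 17.4% of its exonic bases overlap Ints8 on the opposite strand. With rapamycin the deepest fall was that of Ccnd2, the cyclin D2 gene, at -0.39 ± 0.02, followed by -0.78 ± 0.02 with Torin1 and -0.99 ± 0.02 with RapaLink-1. Ccnd1, the cyclin D1 gene and the 1 called higher with rapamycin, had 0.12 ± 0.02 with rapamycin, -0.79 ± 0.02 with Torin1 and -0.67 ± 0.02 with RapaLink-1. Ccnd1 is uncertain, as its exons overlap a gene on the opposite strand over 23.4% of their length. Cdk6 was not called with Torin1 (adjusted p = 0.0674) or RapaLink-1 (adjusted p = 0.618), and upper-quartile scaling called 1 of the 9 higher with each of these compounds and 7 lower with rapamycin.

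Of the 7 CDK inhibitor genes, which keep the pocket proteins unphosphorylated, 3 were called higher and 1 lower with rapamycin, 3 and 4 with Torin1, and 1 and 4 with RapaLink-1. The shares of all genes called higher and lower were 27.5% and 32.2%, 39.8% and 38.3%, and 38.7% and 37.9% in the same order. For the 7 genes, upper-quartile scaling gave 5 and 1, 3 and 3, and 2 and 4. Cdkn2c and Cdkn2d, genes of the INK4 inhibitors of CDK4 and CDK6 that are present in cycling cells, fell, with log2 fold changes of -1.06 ± 0.03 and -1.26 ± 0.05 with Torin1 and of -0.82 ± 0.03 and -0.93 ± 0.05 with RapaLink-1. With rapamycin Cdkn2c was called higher, at 0.08 ± 0.03 (adjusted p = 0.0182), and Cdkn2d was at 0.04 ± 0.05 (adjusted p = 0.418). Cdkn2b, another INK4 gene, rose by 0.30 ± 0.03 with rapamycin (adjusted p = 2.02e-20) and by 0.60 ± 0.03 with Torin1 (adjusted p = 1.07e-51) and was at -0.04 ± 0.03 with RapaLink-1 (adjusted p = 0.235). Cdkn2a, which encodes p16INK4a and ARF, rose by 0.36 ± 0.02 with Torin1 (adjusted p = 1.12e-47), was at -0.24 ± 0.02 with RapaLink-1 (adjusted p = 1.35e-28) and was not called with rapamycin, at -0.01 ± 0.02 (adjusted p = 0.619). Cdkn2a differed between RapaLink-1 and Torin1 by a log2 fold change of -0.61 ± 0.02 (adjusted p = 2.99e-74). Cdkn1a, the p21 gene, had few reads and changed most of the list, at 2.10 ± 0.412 CPM with rapamycin, 0.381 ± 0.144 CPM with Torin1 and 1.05 ± 0.0799 CPM with RapaLink-1, against 4.34 ± 0.202 CPM with DMSO. It fell with each compound, with log2 fold changes of -1.05 ± 0.13 with rapamycin (adjusted p = 3.4e-12), -3.48 ± 0.20 with Torin1 (adjusted p = 2.48e-39) and -2.05 ± 0.16 with RapaLink-1 (adjusted p = 1.62e-26).

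The 10 genes of corepressors that pocket proteins recruit had no common direction, with 4 called higher and 5 lower under rapamycin and 5 and 5 under both Torin1 and RapaLink-1. Kdm5a, a histone H3K4 demethylase gene first found through RB, rose by 0.28 ± 0.02 with rapamycin, 0.59 ± 0.02 with Torin1 and 0.67 ± 0.02 with RapaLink-1. Suv39h1, a histone H3K9 methyltransferase gene, given as uncertain for an overlap of 14.6% of its exonic bases with a gene on the opposite strand, fell, at -0.30 ± 0.03, -0.95 ± 0.03 and -1.01 ± 0.03 in the same order. Hdac1, a histone deacetylase gene, fell, at -0.20 ± 0.02 with rapamycin, -0.65 ± 0.02 with Torin1 and -0.62 ± 0.02 with RapaLink-1. Rbbp7, for a histone-binding subunit of the same deacetylase complexes, fell, at -0.34 ± 0.02, -0.65 ± 0.02 and -0.70 ± 0.02 in that order.

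Nearly all genes listed as E2F targets were lower. Of 34 G1/S targets, genes for DNA replication and nucleotide supply among them and Ccne1 and Ccne2 shared with the cyclin list, 1 was called higher and 33 lower with rapamycin (median log2 fold change -0.36), and 34 of 34 were called lower with Torin1 (-1.29) and with RapaLink-1 (-1.19). Upper-quartile scaling left 31 lower with rapamycin and 34 with each of the others. Rrm2, a ribonucleotide reductase subunit gene, fell, with log2 fold changes of -0.30 ± 0.02, -1.98 ± 0.02 and -1.46 ± 0.02 with rapamycin, Torin1 and RapaLink-1. Mcm5, a subunit gene of the replicative helicase, fell too, at -0.63 ± 0.02, -1.79 ± 0.02 and -1.70 ± 0.02 in that order. Tk1, the thymidine kinase gene, fell, at -0.36 ± 0.02, -2.34 ± 0.03 and -2.03 ± 0.03, and Uhrf1, for a factor of maintenance DNA methylation, at -0.42 ± 0.02, -1.85 ± 0.02 and -1.48 ± 0.02. The exception with rapamycin was Fbxo5, which encodes the APC/C inhibitor EMI1, at 0.22 ± 0.03 (adjusted p = 4.46e-14), singled out after its value was seen.

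Of 24 genes listed as G2/M targets under CHR control, 1 was called higher and 19 lower with rapamycin (median -0.23), and 24 of 24 lower with Torin1 (-1.39) and RapaLink-1 (-1.14). Mki67, the gene of the proliferation marker Ki-67, fell, at -0.23 ± 0.02 with rapamycin, -1.51 ± 0.02 with Torin1 and -1.19 ± 0.02 with RapaLink-1. Bub1b, for a kinase of the spindle checkpoint, was at -0.40 ± 0.02, -1.45 ± 0.02 and -1.29 ± 0.02, and Top2a, for DNA topoisomerase II alpha, at -0.11 ± 0.02, -1.08 ± 0.02 and -0.81 ± 0.02 in the same order. Ccna2, the cyclin A2 gene, was at -0.33 ± 0.02, -1.58 ± 0.02 and -1.34 ± 0.02, and is uncertain, as 12.5% of its exonic bases overlap Exosc9 on the opposite strand. The 1 called higher with rapamycin, named for this after its value was seen, was Nusap1, a mitotic spindle gene, at 0.12 ± 0.02 (adjusted p = 2.27e-06), and upper-quartile scaling gave 4 higher and 18 lower with rapamycin. Between RapaLink-1 and Torin1, 16.7% of all genes were called higher and 16.4% lower. There, 24 of the 24 G2/M targets were higher and 0 lower, and 23 of the 34 G1/S targets were higher and 3 lower. The 3, named after their values were seen, were Mcm7 at -0.05 ± 0.02 (adjusted p = 0.0445), Tyms at -0.14 ± 0.03 (adjusted p = 0.000125) and Ung at -0.29 ± 0.11 (adjusted p = 0.0368). Mcm7 is uncertain, as 12.6% of its exonic bases overlap other genes, among them Cops6 and Ap4m1 on the opposite strand.

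**Figure D4:**
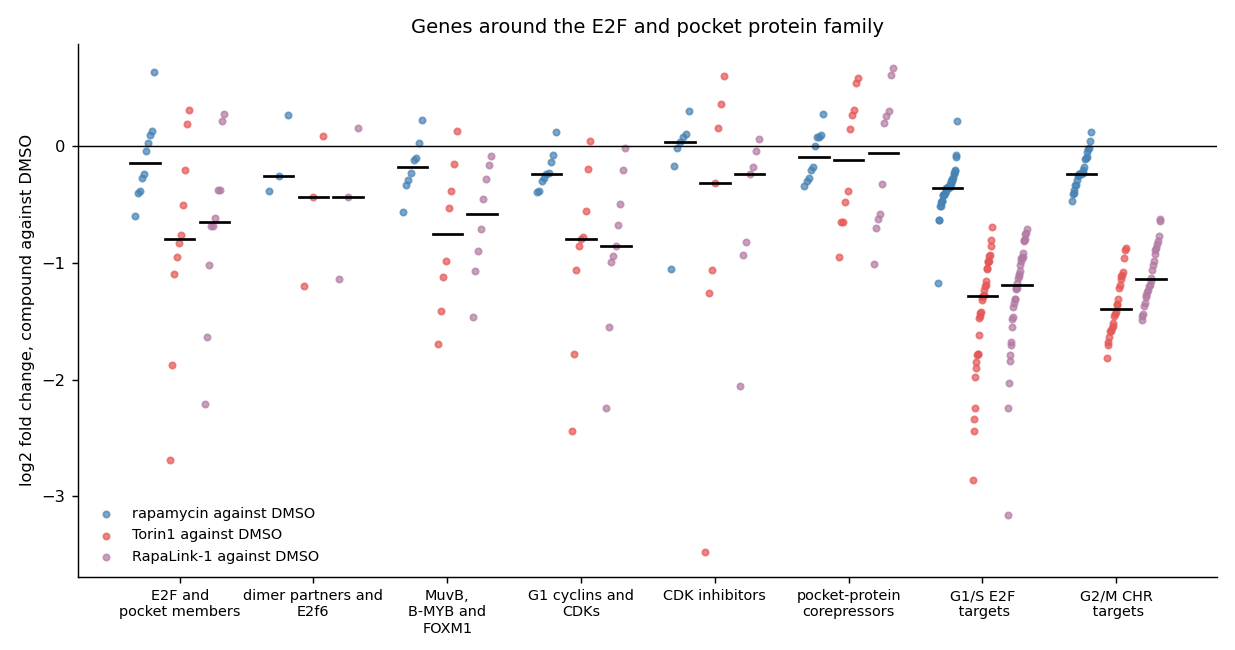
Log2 fold change against DMSO of each gene in the family and in 7 lists around it, with rapamycin, Torin1 and RapaLink-1 side by side from left to right; points are genes and black lines the median of a list. The G1/S and G2/M target lists lie wholly below 0 with Torin1 and RapaLink-1, and the CDK inhibitors and corepressors spread to both sides.

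Genes whose pattern over the 12 libraries was most like that of a member were found among 10087 genes with at least 5 CPM. Likeness was the root mean square difference of log2 CPM, each gene centred on its DMSO mean. Close to E2f8 were Cdca3, a gene for a mitotic entry factor (0.062), and Uhrf1 (0.085). For Rbl1 they were Pttg1, for securin (0.039), Ccnd1 (0.05) and Gpaa1, for a subunit of the GPI transamidase (0.052). E2f1 was closest to Plat, for tissue plasminogen activator (0.053), Yju2, for a splicing factor (0.054), and Rfwd3, for a ubiquitin ligase (0.055). Rbl2 was closest to Rnf5, for a ubiquitin ligase (0.039), Epm2aip1 (0.039) and Vezt, for vezatin (0.045).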

How the data were processed

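RNA was sequenced from mouse embryonic fibroblasts in 12 libraries, grouped by the treatment label, with 3 in each of 4 groups and replicate numbers from the titles. The deposited values are whole-number read counts per gene, made by the authors with featureCounts per the file headers. The submitters' processing notes name Trimmomatic 0.36, STAR 2.5.2b, Subread 1.5.2, DESeq2 and GRCm38. The sources used here do not give the strand setting, the annotation release or the handling of reads with several matches, so a named listed gene is given as uncertain where 10% or more of its exonic bases overlap another gene, a limit set after seeing the data; the genes named for likeness were not checked for overlap. Symbols came from GENCODE M21, and exonic overlap from the exon intervals in the tables. Chi-square over its degrees of freedom between replicates was 1.33 to 1.99, so no library looked like a copy of another. The spread between replicates beyond read sampling was small, with a common biological coefficient of variation of 1.48% in the main fit. These values do not tell whether the replicates were separate cultures, and small p-values here rest on this small spread.

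The main test was edgeR 4.0.16 (R 4.3.3) on these counts: filterByExpr by group (15917 genes left), TMM factors, a robust quasi-likelihood fit of all 12 libraries with the group as its only term (8 residual degrees of freedom), 6 two-sided contrasts, and Benjamini-Hochberg adjustment over all genes tested. CPM use the TMM factors. Members with no overlap are those where each library of one group lies above each of the other. Standard errors were derived from the test, as the size of the log2 fold change divided by the square root of its F statistic. They are therefore no separate measure of spread. Intervals cover 95% by the normal approximation from these standard errors. Alternatives were upper-quartile factors, DESeq2 1.42.0 and its size factors, other filters on low counts, only the 2 groups compared, a replicate block and leaving out each library; those for members between compounds were chosen after seeing the data. The members and gene lists were chosen with earlier results of these data known. Named were all members, up to 4 genes of each other list with the smallest p for Torin1 against DMSO, some further genes of lists of up to 10, whose members may all be named, and the 3 genes most like E2f1, E2f8, Rbl1 and Rbl2, of which 1 is not reported here. Promoter windows came from RefSeq on GRCm38.p6.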

Additional observations from a re-analysis of the deposited data

How the results depend on the processing

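Under the 19 alternatives for each comparison, the counts of members called, the counts of all genes called and both ratios stayed within 1.5 times or on the same side in every one of 270 values. Of 1140 values for single members, 1105 kept direction and call, 23 lost a call, 9 gained one and 3 changed sign. E2f5 with rapamycin against DMSO was 0.024 with upper-quartile factors and 0.019 with a mean of at least 5 CPM, and Rb1 between RapaLink-1 and Torin1 ran from -0.045 to 0.006 when single libraries were left out; none of these was called, and the cause was not tested. No library left out changed the call of a member against DMSO. Upper-quartile factors turned the split of all genes called higher and lower to 5481 and 4061 for rapamycin against DMSO (4381 and 5127 with TMM), 7640 and 4999 for Torin1 against DMSO (6332 and 6090), 7629 and 4823 for RapaLink-1 against DMSO (6165 and 6036), 6359 and 4489 for Torin1 against rapamycin (5451 and 5288) and 6296 and 4311 for RapaLink-1 against rapamycin (5088 and 5260). The replicate numbers paired the libraries weakly at most. Correlations of same-numbered deviations were -0.041 to 0.0782 in 18 pairs, although 8 of 12 libraries correlated best with their own number. With the number as a replicate block the members called were the same in number in all 6 comparisons, and all genes called were 4382 higher and 5134 lower with rapamycin, 6329 and 6085 with Torin1 and 6154 and 6030 with RapaLink-1. Depth limits E2f2 most, with as few as 45 reads in a library.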

Other observations

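The promoters of the target lists were read for the same letters as those of the family. Of 31 windows of the G1/S targets, 61.3% held the 7-base E2F core and 38.7% the 8-base form, and 12.9% held the CHR letters TTTGAA. Of 19 windows of the G2/M targets, 21.1% held the core, 5.26% the 8-base form and 73.7% the CHR letters. Among the windows of all genes tested the core stood in 16.3%, the 8-base form in 3.87% and the CHR letters in 12%. Both lists hold genes known for these elements, so the shares describe the lists and are not independent evidence, and no binding was measured.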
